A study of Triticum aestivum with 6 samples.

Results

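A group of 210 transcript sequences was high in the starchy endosperm of young wheat grain at 6 days post anthesis (DPA) and high in the aleurone at 14 DPA. They were drawn from the 221925 sequences of the deposited tables by a rule on RPKM (the read count scaled to sequence length and to the library's total). A sequence qualified when its RPKM in 6 DPA starchy endosperm was at least 10 and at least 4 times that in 6 DPA aleurone, and when its RPKM in 14 DPA aleurone was at least 10 and at least 4 times that in 14 DPA starchy endosperm. The 14 DPA aleurone value also had to lie above the 6 DPA starchy endosperm value divided by 8 and below 16 times that value. The sequences were chosen by the RPKM of the 6 and 14 DPA libraries alone, so their values at those stages are a description, and the 2 libraries of 9 DPA are the measurement that the rule did not use.

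The study profiled developing grain of the bread wheat cultivar Banks (Triticum aestivum), with aleurone and starchy endosperm dissected at 6, 9 and 14 DPA. Each preparation pooled at least 5 seeds, taken from 3 spikes of 3 plants, and each tissue and stage gave 1 library, hence 6 libraries, with no treatment and no genotype difference between groups. Differences between libraries therefore have no replicate check, no p-value is given, and the intervals below cover counting error only. As these are bulk tissues, fewer cells that carry a transcript and less of the transcript per cell cannot be told apart.

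The cereal endosperm begins as a single multinucleate cell that becomes walled into cells, and its surface cells become aleurone while the inner cells become starchy endosperm. The starchy endosperm fills with starch and storage proteins and is dead in the mature grain. The aleurone stays alive, stores oil, minerals and protein bodies, and secretes the enzymes that break down the starchy endosperm at germination. The fate of the surface layer is known from maize and barley to depend on its position and to remain changeable for much of development.

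Read depth differed between stages. The 6 and 14 DPA libraries held 27150859 to 37911327 reads and the 9 DPA libraries held 4549034 in aleurone and 4104682 in starchy endosperm, so the upper limit behind a count of 0, taken as 3 reads, was at most 0.11 RPM (scaled like RPKM but without the length) at 6 and 14 DPA and at most 0.731 RPM at 9 DPA. The files do not pair the identifiers with genes, 0 of the 210 matched the reference gene table, and no function, sequence or marker gene of either tissue could be given for them. Of the 210, 159 had identifiers that begin with TC and 51 had others, a TC share of 75.7% against 77.7% of the 27253 sequences with at least 10 RPKM in either 6 DPA starchy endosperm or 14 DPA aleurone. Their median length was 740 bases (range 167 to 2274), against 775 bases in that larger set.

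The switch was set against the transcripts that favoured the starchy endosperm early. At 6 DPA, 3264 of the 20315 sequences with at least 10 RPKM in starchy endosperm were at least 4 times higher there than in aleurone (16.1%). At 14 DPA, 6399 of the 21050 sequences with at least 10 RPKM in aleurone were at least 4 times higher there than in starchy endosperm (30.4%). Both held for 234 sequences, 7.17% of the early starchy endosperm group. The like share over all sequences with at least 10 RPKM in 6 DPA starchy endosperm was not counted, so this share has no background. The limits on the 14 DPA aleurone level removed 24 of these, 18 because aleurone at 14 DPA was at least 16 times the early starchy endosperm level and 6 because it was too low, and left the 210. The reverse rule, from aleurone at 6 DPA to starchy endosperm at 14 DPA, was met by 54 sequences. The group that it starts from was not counted.

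The 210 covered a wide range of abundance. In starchy endosperm their RPKM ran from 10.04 to 571 at 6 DPA with a median of 34.7, from 0 to 987 at 9 DPA with a median of 12.4, and from 0.109 to 228 at 14 DPA with a median of 4.89. In aleurone it ran from 0.077 to 63.9 at 6 DPA with a median of 3.27, from 0 to 266 at 9 DPA with a median of 4.64, and from 10.01 to 2628 at 14 DPA with a median of 37.2. The medians thus stepped down with stage in starchy endosperm and were low in aleurone until 14 DPA. No sequence (0) was without total reads in any 6 or 14 DPA library. Total reads include reads that are not unique to a sequence, so a level above 0 in the low tissue does not follow for each. TC416031, for example, had 3 reads in 14 DPA starchy endosperm, of which 0 were unique. At 6 DPA 41 of the 210 were under 1 RPKM in aleurone, and at 14 DPA 21 were under 1 RPKM in starchy endosperm, while 41 and 52 were still at 10 RPKM or more there.

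**Figure D1:**
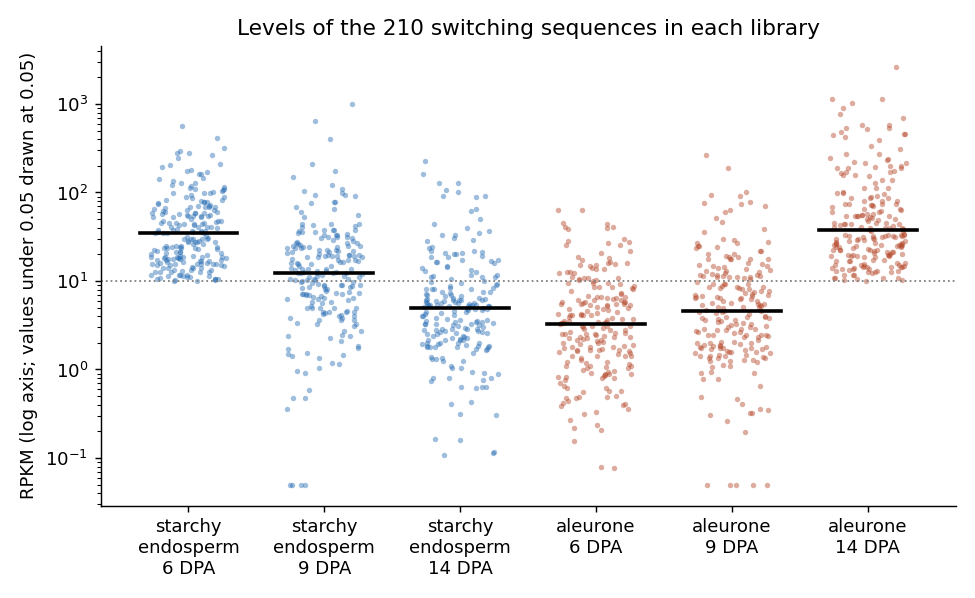
RPKM of each of the 210 sequences (points, log axis) in the 3 starchy endosperm libraries (blue) and the 3 aleurone libraries (red), with the median as a black bar and the rule's minimum of 10 RPKM as a dotted line. The medians run 34.7, 12.4 and 4.89 in starchy endosperm and 3.27, 4.64 and 37.2 in aleurone at 6, 9 and 14 DPA.

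As a share of all reads, the 210 sequences took 0.999% of the 6 DPA starchy endosperm library (exact Clopper-Pearson 95% interval 0.996 to 1.003), 0.542% at 9 DPA (0.535 to 0.549) and 0.217% at 14 DPA (0.216 to 0.219). In aleurone they took 0.125% (0.124 to 0.127), 0.232% (0.227 to 0.236) and 2.02% (2.02 to 2.03). Their share of the 14 DPA aleurone was therefore larger than their share of any starchy endosperm library. A few sequences weighed heavily in these sums. The 10 most counted members held 42.9% of the members' reads in 14 DPA aleurone, 25.5% in 6 DPA starchy endosperm and 49.2% in 9 DPA starchy endosperm.

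The tissue ratios at the stages that chose them were mostly moderate. The ratio of starchy endosperm to aleurone at 6 DPA had a median of 8.20 with quartiles of 4.99 and 21.2, and the ratio of aleurone to starchy endosperm at 14 DPA had a median of 7.45 with quartiles of 5.36 and 14.2. Both ratios reached 8 for 52 sequences and 16 for 17. The lowest 6 DPA ratio inside the rule was 4.005 and the highest outside it, with the other criteria met, was 3.99. For the 14 DPA ratio these values were 4.02 and 3.98, for the RPKM in 6 DPA starchy endosperm 10.04 and 9.87, and for the RPKM in 14 DPA aleurone 10.01 and 9.94. The 14 DPA aleurone to 6 DPA starchy endosperm ratio ran from 0.129 to 15.99 inside the rule, with 0.116 and 16.1 as the nearest values outside. The lower 95% limit was at least 4 for both ratios in 140 of the 210.

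The rule bounds how far the level reached in aleurone can lie from the level first held in starchy endosperm. The 14 DPA aleurone RPKM was within 2-fold of the 6 DPA starchy endosperm RPKM for 94 sequences, was the higher value for 121 and the lower for 89. It was at least 4 times higher for 39 and at least 4 times lower for 11. The shares over all sequences with at least 10 RPKM in both libraries were not counted, so these counts are a description.

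At 9 DPA most of the sequences that could be considered were still higher in starchy endosperm. Of the 210, 155 had at least 20 reads in the higher of the 2 libraries of 9 DPA and were considered, with counts under 3 set at 3, and 55 had fewer. Starchy endosperm was at least 4 times higher than aleurone for 60 of the 155, or 38.7%, where 14.4% of all 39388 sequences considered the same way were. Aleurone was at least 4 times higher for 5, or 3.23%, against 22.2% of all sequences. The other 90 were within 4-fold. By sign alone, starchy endosperm was the higher tissue for 123 of 155, where 45.4% of all sequences leaned that way. For 104 of the 155 the counting interval of the ratio lay wholly on the starchy endosperm side, for 20 on the aleurone side, and for 31 it held a ratio of 1.

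The median log2 ratio of aleurone to starchy endosperm over these 155 moved from -2.99 at 6 DPA to -1.59 at 9 DPA (quartiles -2.77 and -0.32) and 2.87 at 14 DPA, while over all 39388 sequences it was 0.24 at 9 DPA. The 9 DPA ratio lay between the 6 and the 14 DPA ratios for 137 of the 155. It was nearer to the 6 DPA ratio for 126 and nearer to the 14 DPA ratio for 29. The rule places the 6 and 14 DPA ratios at least 4-fold to opposite sides. A 9 DPA ratio between them is thereby favoured, and these counts are a description. The 9 DPA stage is 3 days from the earlier and 5 days from the later sampling, so these distances are not per day.

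**Figure D2:**
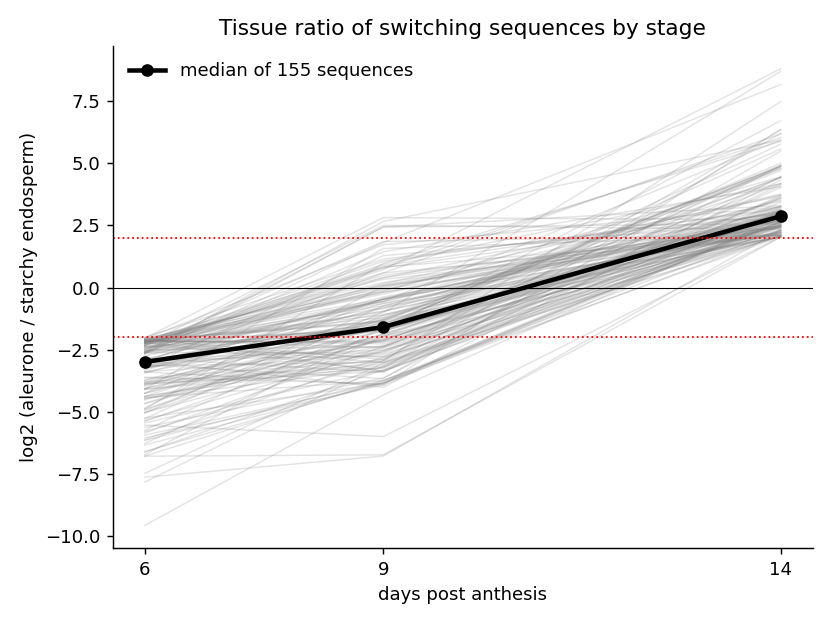
Log2 ratio of aleurone to starchy endosperm (y axis) at 6, 9 and 14 DPA (x axis) for the 155 sequences with at least 20 reads in a 9 DPA library, each a grey line, with the median in black and 4-fold differences as red dotted lines. The median runs -2.99, -1.59 and 2.87, and 5 lines lie above the upper dotted line at 9 DPA.

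Set beside like groups, the switching sequences had an intermediate tissue ratio at 9 DPA. The other sequences that were high in starchy endosperm at 6 DPA (2192 considered) had a median log2 ratio of aleurone to starchy endosperm of -3.21 at 9 DPA, and 70.1% of them were at least 4 times higher in starchy endosperm. They also leaned further to starchy endosperm at 6 DPA, with a median of -4.19. The other sequences that were high in aleurone at 14 DPA (4283 considered) had a median of 1.57 at 9 DPA, and 41.3% were at least 4 times higher in aleurone. The reverse switch (48 considered) had a median of 2.69 at 9 DPA against 3.28 at 6 DPA, with 26 at least 4 times higher in aleurone and 1 at least 4 times higher in starchy endosperm. These groups were formed on the same 6 and 14 DPA libraries, and the difference between them was not tested.

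**Figure D3:**
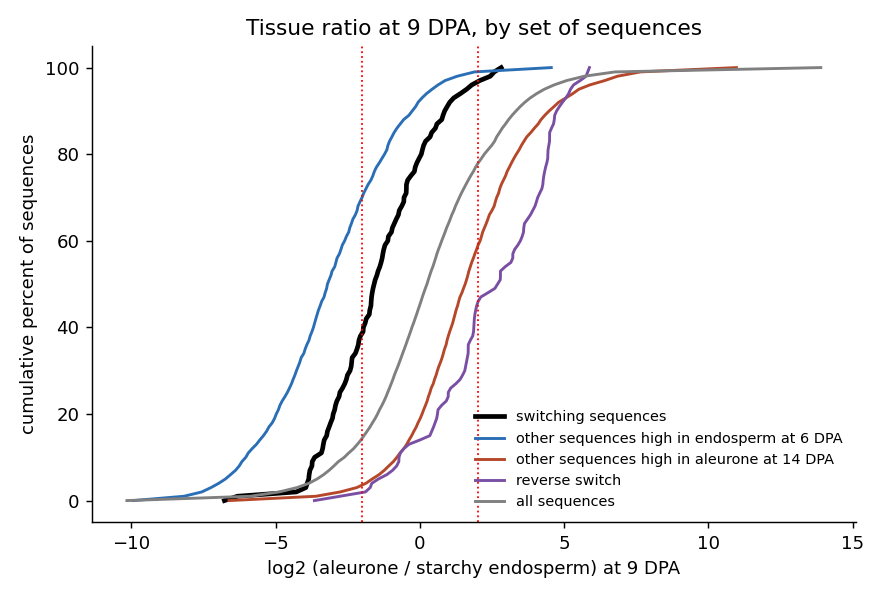
Cumulative percent of sequences (y axis) by log2 ratio of aleurone to starchy endosperm at 9 DPA (x axis) for the switching sequences (black), other sequences high in starchy endosperm at 6 DPA (blue), other sequences high in aleurone at 14 DPA (red), the reverse switch (purple) and all sequences (grey), with 4-fold differences as red dotted lines. The black curve, with a median of -1.59, lies between the blue curve at -3.21 and the grey curve at 0.24 over most of its range.

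The 9 DPA level in each tissue was then set against that tissue's own high stage. At 9 DPA starchy endosperm was at least 4 times below its own 6 DPA level for 78 of the 210 (37.1%), compared with 20.3% of all sequences with at least 10 RPKM in 6 DPA starchy endosperm and 34.3% of the early starchy endosperm group. Aleurone at 9 DPA was already within 4-fold of its 14 DPA level, or above it, for 62 of the 210 (29.5%), compared with 78.2% of all sequences with at least 10 RPKM in 14 DPA aleurone and 62.9% of the late aleurone group. This is not a count of gains, as 35 of the 62 were within 4-fold of their 14 DPA aleurone level at 6 DPA too, and 27 were not. These shares use the libraries that chose the members, and nothing is read from the distance to the background. For 30 of the 210 (14.3%) starchy endosperm was higher at 9 than at 6 DPA, compared with 31.3% of all sequences with at least 10 RPKM in 6 DPA starchy endosperm.

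Taking both tissues, 4 states were seen at 9 DPA. The commonest, 95 sequences (45.2%), was less than 4-fold below its 6 DPA level in starchy endosperm and more than 4-fold below its 14 DPA level in aleurone, with median RPKM of 23.4, 17.3 and 6.14 in starchy endosperm and 2.31, 3.45 and 62.7 in aleurone at 6, 9 and 14 DPA. Another 53 (25.2%) were at least 4-fold down in starchy endosperm and more than 4-fold below their 14 DPA level in aleurone, with medians of 29.7, 3.77 and 5.03 against 3.00, 1.78 and 33.5. In 37 (17.6%) both tissues were within 4-fold of those levels or above them, with medians of 47.1, 21.0 and 2.89 against 6.70, 15.2 and 25.1. In the last 25 (11.9%) starchy endosperm was at least 4-fold down and aleurone was within 4-fold of its 14 DPA level or above it, with medians of 81.1, 11.3 and 3.42 against 13.8, 11.8 and 22.6. The aleurone of this last group was no higher at 9 than at 6 DPA by its medians, and 15 of the 25 were within 4-fold of the 14 DPA aleurone level at 6 DPA already. The 4-fold limit also hides smaller declines: 58 of the 132 sequences not 4-fold down in starchy endosperm were down by 2-fold to 4-fold.

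**Figure D4:**
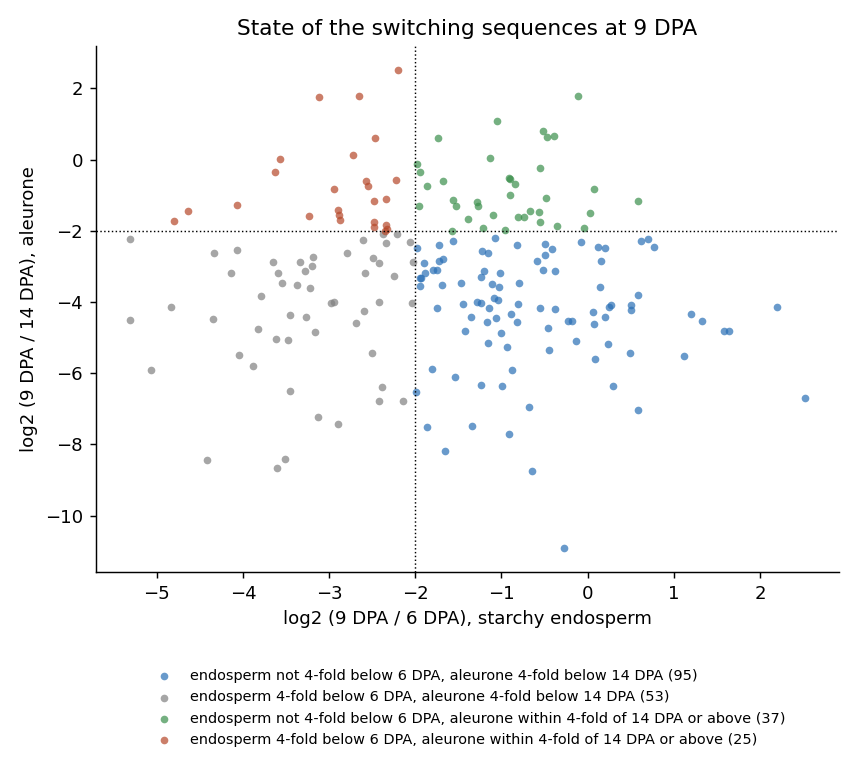
Log2 ratio of 9 to 6 DPA in starchy endosperm (x axis) and of 9 to 14 DPA in aleurone (y axis) for each of the 210 sequences, with counts under 3 set at 3 and dotted lines at 4-fold below. Colours give the 4 states, with 95, 53, 37 and 25 sequences, and the lower right field, starchy endosperm not 4-fold below 6 DPA and aleurone 4-fold below 14 DPA, is the fullest.

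A subset was low in both tissues at 9 DPA relative to its own high levels. For 43 of the 210 (20.5%), both 9 DPA libraries were at least 4 times below the smaller of the 6 DPA starchy endosperm and 14 DPA aleurone levels, against 2.79% of the 14112 sequences with at least 10 RPKM in both of those libraries. The rule asks for a low value in 2 of the 4 other libraries, so this share is also a description. Their median RPKM in starchy endosperm was 26.3, 3.28 and 5.35 at the successive stages, and in aleurone 3.23, 1.73 and 43.8. At 9 DPA these medians rest on few reads, 9 in starchy endosperm and 6 in aleurone. Low is relative here, as CD909191, one of the 43, still had 92.8 RPKM in 9 DPA starchy endosperm.

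TC393173 (1144 bases) was one of the 2 deepest of these. It had 291, 13.6 and 64.3 RPKM in starchy endosperm and 1.29, 1.54 and 529 RPKM in aleurone at 6, 9 and 14 DPA. Starchy endosperm was high at 6 DPA, lowest at 9 DPA and partly back at 14 DPA, when aleurone was higher than any starchy endosperm library. At 9 DPA the sequence had 64 reads in starchy endosperm and 8 in aleurone, a ratio of 8.87 (95% interval 4.24 to 21.4). Of those, 16 and 2 were unique. The unique share of TC393173 was 17.5% in 6 DPA starchy endosperm and 33.2% in 14 DPA aleurone, so shared reads bear on its course too. TC425571 (624 bases), the other, had 209, 6.25 and 33.1 RPKM in starchy endosperm and 39.3, 2.82 and 170 RPKM in aleurone. Both tissues had their minimum at 9 DPA, with 16 and 8 reads. Only 2.16% of its 6 DPA starchy endosperm reads and 1.91% of its 14 DPA aleurone reads were unique to it, so its values may belong in part to near-identical sequences.

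The change between 6 and 14 DPA was made up in 3 ways, and the rule's thresholds force at least one 4-fold change. In 100 sequences (47.6%) starchy endosperm was at least 4 times lower and aleurone at least 4 times higher at 14 than at 6 DPA. In 64 (30.5%) only the aleurone change reached 4-fold, and in 46 (21.9%) only the starchy endosperm change did. Counted by tissue, 146 (69.5%) were at least 4 times lower in starchy endosperm, against 33.1% of all sequences with at least 10 RPKM there at 6 DPA and 46.3% of the early starchy endosperm group. In aleurone 164 (78.1%) were at least 4 times higher, against 16.5% of all sequences with at least 10 RPKM there at 14 DPA and 31.4% of the late aleurone group. Scaling bears on this split. With TMM scaling, which moved all log2 ratios of 14 to 6 DPA up by 0.62 in starchy endosperm and by 0.13 in aleurone, the same 210 sequences divided into 80, 90 and 40, so that the aleurone change alone became the commonest way.

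At 9 DPA the sequences that switched by an aleurone gain alone leaned most to starchy endosperm. Where only the aleurone change reached 4-fold, 28 of 46 considered were at least 4 times higher in starchy endosperm at 9 DPA, 0 were at least 4 times higher in aleurone, and the median log2 ratio of aleurone to starchy endosperm was -2.61. Where only the starchy endosperm change did, the numbers were 4 and 3 of 38 and the median was -0.28. With both changes they were 28 and 2 of 71 and the median was -1.62. Sequences switching by an aleurone gain alone had median RPKM of 1.85, 2.85 and 92.2 in aleurone and 18.2, 14.3 and 11.6 in starchy endosperm, so the starchy endosperm level was nearly level and was overtaken between 9 and 14 DPA. Those switching by a starchy endosperm loss alone had medians of 57.6, 13.9 and 3.27 in starchy endosperm and 11.8, 11.02 and 21.5 in aleurone. These groups were formed on the 6 and 14 DPA libraries and differed at 6 DPA already. The 6 DPA aleurone median was 1.85 RPKM with a gain alone and 11.8 RPKM with a loss alone. The lean at 9 DPA therefore cannot be told apart from the way the groups were formed. The differences between them were not tested.

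At the far end of the first kind, 11 sequences had as much or more RPKM in starchy endosperm at 14 as at 6 DPA. Their median was 31.6, 24.0 and 61.6 RPKM in starchy endosperm and 1.65, 2.31 and 422 RPKM in aleurone. All 11 were at least 4 times higher in aleurone at 14 than at 6 DPA. The rule forces this where starchy endosperm did not fall, so it is no separate result. Of the 9 considered at 9 DPA all 9 were higher in starchy endosperm, 6 of them at least 4-fold. For these the term switch describes the ratio between tissues and not a loss from starchy endosperm.

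TC383028 (1117 bases) was the clearest of them and also had the second highest 14 DPA aleurone level. It had 78.3, 64.8 and 228 RPKM in starchy endosperm and 0.396, 0.197 and 1136 RPKM in aleurone. Aleurone was near its lowest detectable level at 6 and 9 DPA, with 12 reads and 1 read, and had 48108 reads at 14 DPA. Its 9 DPA ratio of starchy endosperm to aleurone had a 95% interval of 58.6 to 13044. TC386715 (947 bases) measured 17.1, 98.3 and 23.4 RPKM in starchy endosperm and 0.156, 0.929 and 95.7 RPKM in aleurone. Its starchy endosperm level was highest at 9 DPA, where 382 reads stood against 4 in aleurone, a ratio of 106 (41.0 to 390). Of these reads of TC386715, 47 in starchy endosperm and 0 in aleurone were unique, so its 9 DPA level rests mostly on shared reads. TC383028 and TC386715 had the largest 9 DPA excess in starchy endosperm among members with at least 50 reads there. Members ranked this way also had at least 20% unique reads in 6 DPA starchy endosperm and in 14 DPA aleurone.

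In 29 of the 210 starchy endosperm was highest at 9 DPA, and for 16 of these both differences, from 6 and from 14 DPA, were beyond counting error. The share over all sequences was not counted. The most abundant of the 29 was TC412982 (693 bases), with 317, 987 and 88.1 RPKM in starchy endosperm and 44.3, 93.3 and 2628 RPKM in aleurone. It was the most abundant of all members in 14 DPA aleurone. At 9 DPA it was 10.6 times higher in starchy endosperm (9.38 to 12.0), on 2807 against 294 reads. Of its reads, 21.8% were unique in 6 DPA starchy endosperm and 24.6% in 14 DPA aleurone.

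The 2 members most abundant in 6 DPA starchy endosperm both declined there by 9 DPA. BQ236836 (564 bases) measured 571, 149.9 and 90.9 RPKM in starchy endosperm and 13.7, 38.2 and 387 RPKM in aleurone. It moved down in one tissue and up in the other at each stage, and was still 3.92 times higher in starchy endosperm at 9 DPA (3.13 to 4.96). CD909191 (449 bases) measured 409, 92.8 and 127 RPKM in starchy endosperm and 9.43, 9.30 and 1023 RPKM in aleurone. Its aleurone level was flat from 6 to 9 DPA, when starchy endosperm was 9.97 times higher (6.19 to 17.0), and the whole aleurone gain fell after 9 DPA.

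Such a stepwise course in both tissues was not general. The order 6, 9, 14 DPA was strictly downward in starchy endosperm for 127 sequences and strictly upward in aleurone for 128, and both held for 75 of the 210. Starchy endosperm was lowest at 9 DPA for 53 and aleurone was lowest at 9 DPA for 69. By asking for a high 6 DPA starchy endosperm level and a high 14 DPA aleurone level, the rule favours a strict order. The counts are a description, and the shares over all sequences were not counted.

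Some members had already crossed, or were even, at 9 DPA. TC437421 (1134 bases) crossed early, with 42.5, 5.80 and 0.635 RPKM in starchy endosperm and 1.43, 11.4 and 37.4 RPKM in aleurone. It moved steadily in both tissues, and aleurone was 1.97 times higher at 9 DPA (1.23 to 3.23). Of its reads, 82.6% in 6 DPA starchy endosperm and 87.6% in 14 DPA aleurone were unique. At 9 DPA 26 of its 59 aleurone reads and 14 of its 27 starchy endosperm reads were. The crossing therefore rests in part on shared reads. TC395318 (1866 bases) was even at 9 DPA, with 60.8, 19.1 and 3.39 RPKM in starchy endosperm and 14.6, 18.8 and 28.5 RPKM in aleurone, a ratio of aleurone to starchy endosperm of 0.989 (0.785 to 1.25). TC374283 (1207 bases) was even too, at 1.04 (0.794 to 1.37), with 108, 20.8 and 20.1 RPKM in starchy endosperm and 18.2, 21.7 and 92.4 RPKM in aleurone. The first reached evenness by a fall that continued to 14 DPA, and in the second the starchy endosperm fall was complete at 9 DPA and the aleurone gain came later. At 9 DPA, 17 of 119 aleurone reads and 14 of 103 starchy endosperm reads of TC374283 were unique. At 14 DPA 400 of its 911 starchy endosperm reads were, a larger share, so its course on unique reads differs. For TC395318 the unique reads at 9 DPA were 83 of 160 in aleurone and 64 of 146 in starchy endosperm.

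**Figure D5:**
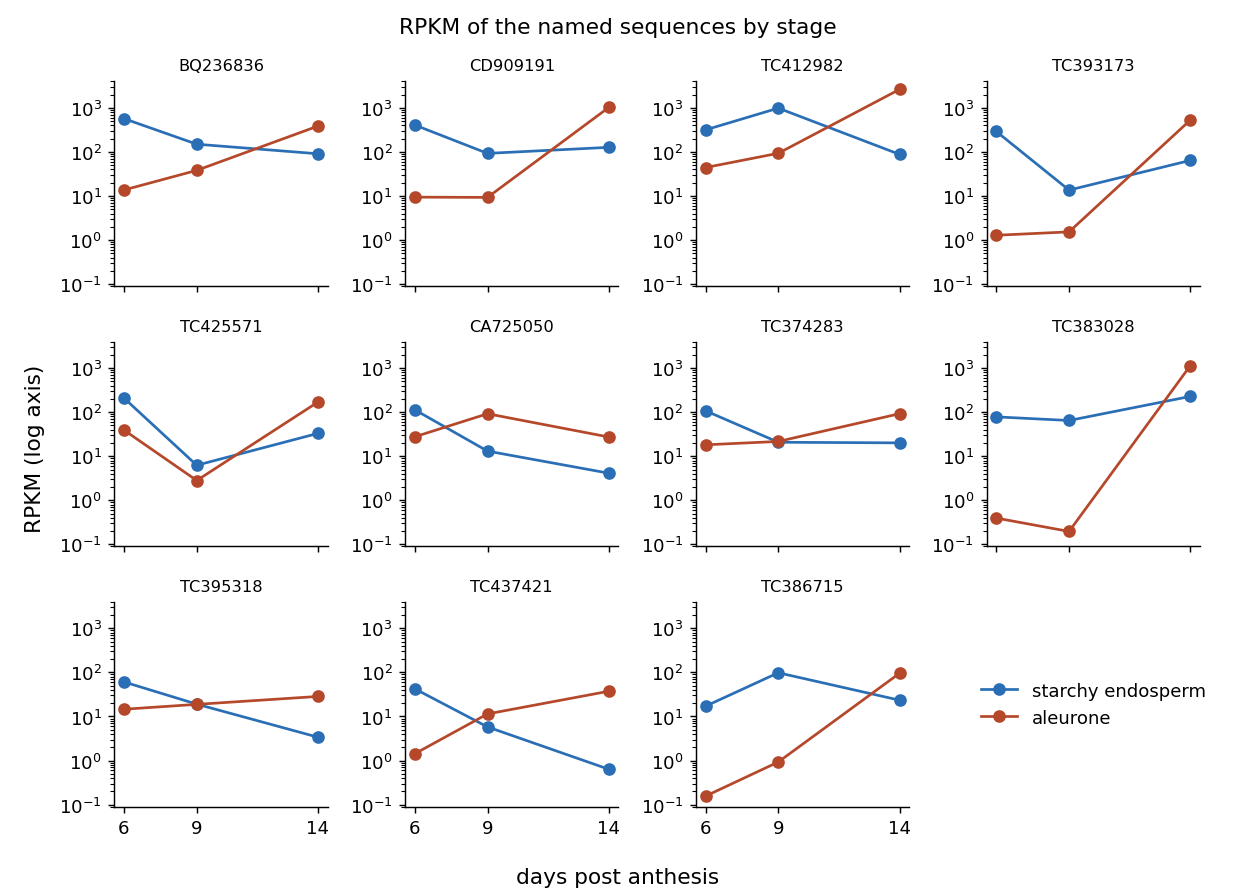
RPKM (log axis) at 6, 9 and 14 DPA (x axis) in starchy endosperm (blue) and aleurone (red) for 11 named sequences, 1 panel each, with 1 library per point. The lines cross between 9 and 14 DPA in most panels, cross before 9 DPA for CA725050 and TC437421, and meet at 9 DPA for TC395318 and TC374283.

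The 5 sequences at least 4 times higher in aleurone at 9 DPA were looked at after their values were seen. CA725050 (465 bases) measured 113, 13.1 and 4.13 RPKM in starchy endosperm and 27.6, 92.2 and 27.3 RPKM in aleurone, and was 7.04 times higher in aleurone at 9 DPA (4.63 to 11.1). By total reads it had crossed by 9 DPA, with aleurone up and starchy endosperm down from 6 DPA, and both tissues were lower at 14 DPA. At 9 DPA 44 of its 195 aleurone reads and 12 of its 25 starchy endosperm reads were unique, so shared reads bear on its ratio. CK162033, with 69.9 against 12.9 RPKM, and TC370677, with 64.1 against 11.3, also had their aleurone maximum at 9 DPA. Only 6.53% and 3.84% of their 6 DPA starchy endosperm reads were unique. CA644714, with 21 reads in aleurone and 3 in starchy endosperm, and CK198358, with 42 and 7, were higher again in aleurone at 14 DPA. On unique reads none (0) of the sequences that met the rule was at least 4 times higher in aleurone at 9 DPA.

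Aleurone was no higher at 14 than at 6 DPA for 6 of the 210, CA725050 among them. In these 6 the aleurone RPKM ran from 13.9 to 40.8 at 6 DPA and from 10.6 to 40.0 at 14 DPA, while starchy endosperm ran from 63.4 to 245 at 6 DPA and from 0.114 to 5.21 at 14 DPA.

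Ranked by the smaller of the 6 and 14 DPA tissue ratios, the switch was widest for TC376459 (784 bases), picked after its values were seen. It had 136, 21.1 and 0.408 RPKM in starchy endosperm and 2.07, 1.40 and 33.5 RPKM in aleurone. Starchy endosperm was 66.0 times higher at 6 DPA (49.04 to 91.0), aleurone was 82.1 times higher at 14 DPA (46.8 to 159), and at 9 DPA starchy endosperm was still 15.1 times higher (6.15 to 47.9). The levels in aleurone at 6 and 9 DPA were alike and low. Single ratios of other members were larger, up to 757.5 at 6 DPA and 446 at 14 DPA. CV065441 ranked next, with a smaller ratio of 48.5 (20.5 to 150), an interval that overlaps that of TC376459.

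Reads shared between near-identical sequences touch many members. Reads marked unique in the deposited tables made up a share that had a median of 58.6% in 6 DPA starchy endosperm and 56.5% in 14 DPA aleurone, with quartiles of 32.1% and 90.02% in the former. Among all sequences with at least 10 RPKM the medians were 60.9% and 58.4%. In 43 members the share was under 20% in one or both of these libraries, and in 111 it was at least 50% in both. Among the 111, 37 of 82 considered were at least 4 times higher in starchy endosperm at 9 DPA and 1 was at least 4 times higher in aleurone, with a median log2 ratio of -1.72. Pooled over the 210, unique reads were 48.0% of the members' reads in 6 DPA starchy endosperm and 47.8% in 14 DPA aleurone. At 9 DPA they were 37.2% in starchy endosperm and 30.0% in aleurone, so the 9 DPA values lean more on shared reads. Of the 210, 21 had another member within 0.5 log2 units in all 6 libraries; whether any of these are the same transcript was not tested.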

How the data were processed

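Aleurone and starchy endosperm were dissected, and their RNA underwent linear amplification, library preparation with 15 PCR cycles and sequencing on a Genome Analyzer IIx, per the labels' protocols. No aligner, setting or version of the sequence set is named in the sources used here. Per the file headers, the authors deposited for each sequence a count of total reads, a count of unique reads and an RPKM value, which total counts, lengths and library totals gave back to within 5e-04. The sources used here do not state how reads that match several sequences were assigned.

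The rule was applied to the deposited RPKM values. The members, lists and comparisons were chosen with earlier results of these data known. Tissue ratios used total read counts per library total, with counts under 3 set at 3, and exact conditional binomial 95% limits. At 9 DPA, members were considered where the higher library held at least 20 reads and a 4-fold difference was counted. With 1 library per tissue and stage no test was made. Alternatives were unique reads, TMM (edgeR 4.0.16) and DESeq2 1.42.0 size factors, other thresholds, equal depth and subsets of members. The selection was tested on simulated data. Named sequences were the 2 with the most aleurone-sided, most starchy endosperm-sided and most even 9 DPA ratio. They had at least 50 reads in the higher 9 DPA library. At least 20% of their reads were unique in 6 DPA starchy endosperm and in 14 DPA aleurone. Also named were the 2 highest in 6 DPA starchy endosperm and in 14 DPA aleurone, and the 2 with the deepest 9 DPA minimum. Others were chosen after their values were seen, as said there. Python 3.11.15 and R 4.3.3 were used.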

Additional observations from a re-analysis of the deposited data

Results flagged for a closer look

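For 100 of the 210 sequences, aleurone was at least 4 times higher and starchy endosperm at least 4 times lower at 14 than at 6 DPA. They stand out because the stage change ran in opposite directions in the 2 tissues. The difference was not tested, as there was 1 library per tissue and stage, and the rule that chose the sequences favours it.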

How the results depend on the processing

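The median 9 DPA log2 ratio of aleurone to starchy endosperm stayed negative under all 14 alternatives, from -2.12 to -0.65, and it moved by more than 1.5-fold with a rule of 2-fold only (-0.65). With TMM or DESeq2 size factors, which lowered all 14 DPA log2 ratios of aleurone to starchy endosperm by 0.69 and 0.71, 150 and 149 sequences met the rule, 124 and 120 of them among the 210, and 38 and 37 were at least 4 times higher in starchy endosperm at 9 DPA. All 210 kept both directions at 6 and 14 DPA under either scaling. On unique reads 222 met the rule, 137 of them shared, 0 were at least 4 times higher in aleurone at 9 DPA, and 208 of the 210 were still higher in aleurone at 14 DPA.

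In what follows the counts run in a fixed order. First come members, then those with a 4-fold excess at 9 DPA in aleurone and those with one in starchy endosperm. Next are those at least 4-fold below 6 DPA in starchy endosperm and those within 4-fold of 14 DPA in aleurone or above. Last are those low in both tissues at 9 DPA relative to their 6 DPA starchy endosperm and 14 DPA aleurone levels. The reported counts were 210, 5, 60, 78, 62 and 43. They were 1207, 38, 192, 379, 743 and 134 with a rule of 2-fold, 52, 0, 19, 18, 8 and 11 with 8-fold, 366, 8, 78, 139, 113 and 76 with a minimum of 5 RPKM, and 113, 3, 40, 42, 35 and 22 with 20 RPKM. Among members with at least 50% unique reads, a subset chosen after seeing the data, they were 111, 1, 37, 34, 24 and 22. A fold of 2 at 9 DPA gave 13, 96, 136, 27 and 95 for the last 5 counts. A minimum of 50 reads at 9 DPA left 89 members, 3 with the excess in aleurone and 37 with it in starchy endosperm. With TC identifiers alone 1 was higher in aleurone, and where both rule ratios had a lower limit of 4, 38 were within 4-fold of 14 DPA in aleurone. Counts not given here stayed within 1.5 times, those without the limit on 14 DPA aleurone and those at equal depth included. The causes were not tested. No paired analysis was possible because the result comes from no test and each tissue and stage had 1 library. The 9 DPA depth limits the 55 members with under 20 reads there.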
